A study of Mus musculus with 6 samples.

Results

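The Dlk1-Dio3 domain is an imprinted stretch of mouse chromosome 12, and 8 mature microRNAs (miRNAs) made from it were followed in serum. They were miR-127-3p, miR-134-5p, miR-136-5p, miR-379-5p, miR-381-3p, miR-382-5p, miR-434-3p and miR-541-5p, taken by their miRBase identifiers as a fixed list. The rule of the list used no measured value, but the list was chosen with earlier results of these data known. Of these 8, 7 were among the 788 miRNAs with reads in at least 1 library, and miR-136-5p had none. The serum came from healthy 129/SVj mice of both sexes, aged between 2 and 9 months, with no treatment other than the sedation before blood was drawn from the heart. The same kind of RNA was made into 6 small RNA libraries, 2 with each of 3 preparation kits: NEBNext Multiplex Small RNA (New England Biolabs), TruSeq small RNA v2 (Illumina) and TailorMix miRNA v2 (Seqmatic). The labels set the libraries apart by kit and by a serum number, 1 or 2 within each kit. They do not say whether equal numbers are the same serum. Each comparison asks how much of a serum miRNA is read with 1 kit as against another. Serum was taken from single mice, but the sources used here do not tie a library to a mouse. A difference between kits therefore cannot be told apart from a difference between mice, their sex and age included. The p-values measure the spread between these libraries only.

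Genes of this domain are expressed from 1 parental chromosome. Dlk1, Rtl1 and Dio3, which code for proteins, are read from the paternal copy, and the noncoding RNAs Meg3, Rian and Mirg from the maternal copy. The miRNAs are cut out of the maternal transcripts, in 1 group that lies antisense to Rtl1 and a larger group at and before Mirg. Several of them are known from brain and from embryonic and placental tissue. miR-127-3p, miR-434-3p and miR-136-5p are fully complementary to the Rtl1 transcript and act against it, and miR-134-5p is known in neurons as a brake on Limk1, a kinase of the dendritic spine.

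The mature sequences are shown because reads were counted only where they matched the genome without a mismatch, and because the kits were compared on these molecules. They were taken from RefSeq on GRCm38.p6, and all 8 members were matched by name. The seed, bases 2 to 8 counted from the 5′ end, is in capitals, and it is the part of a miRNA that pairs with its targets.
miR-127-3p (MIMAT0000139): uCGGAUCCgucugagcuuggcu
miR-434-3p (MIMAT0001422): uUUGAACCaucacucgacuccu
miR-136-5p (MIMAT0000148): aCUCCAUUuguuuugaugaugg
miR-379-5p (MIMAT0000743): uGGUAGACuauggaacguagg
miR-381-3p (MIMAT0000746): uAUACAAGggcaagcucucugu
miR-382-5p (MIMAT0000747): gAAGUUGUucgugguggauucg
miR-134-5p (MIMAT0000146): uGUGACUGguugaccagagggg
miR-541-5p (MIMAT0003170): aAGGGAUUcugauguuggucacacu

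No pair of members shared a seed, so that the 8 have 8 different seeds. Of the 1679 mature mouse miRNAs in the RefSeq table, miR-379-5p shared its seed with 1 other, miR-1193-5p of the same chromosome, and each of the other 7 seeds occurred once. Repeated entries of a name were dropped from that table before the match, so that a single genomic copy of each member was not checked. All 8 lie on the forward strand of chromosome 12 (GRCm38) and span 149.559 kb. miR-127-3p lies at chr12:109592888-109592909, miR-434-3p at chr12:109594565-109594586 and miR-136-5p at chr12:109595331-109595352, each within an exon of Rtl1 on the opposite strand. After a gap of 113.713 kb follow miR-379-5p at chr12:109709065-109709085 and miR-381-3p at chr12:109726870-109726891, which lie in no annotated part of Meg3, Rtl1, Rian or Mirg (GENCODE release M21). miR-382-5p at chr12:109733781-109733802 and miR-541-5p at chr12:109742422-109742446 lie in introns of Mirg, and miR-134-5p at chr12:109734145-109734166 overlaps an exon of it. RefSeq lists 58 hairpins and 113 mature miRNAs between Dlk1 and Dio3. miRNAs of the domain other than these 8 were not analysed here, since the count lists give identifiers that no table used here pairs with names.

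**Figure D1:**
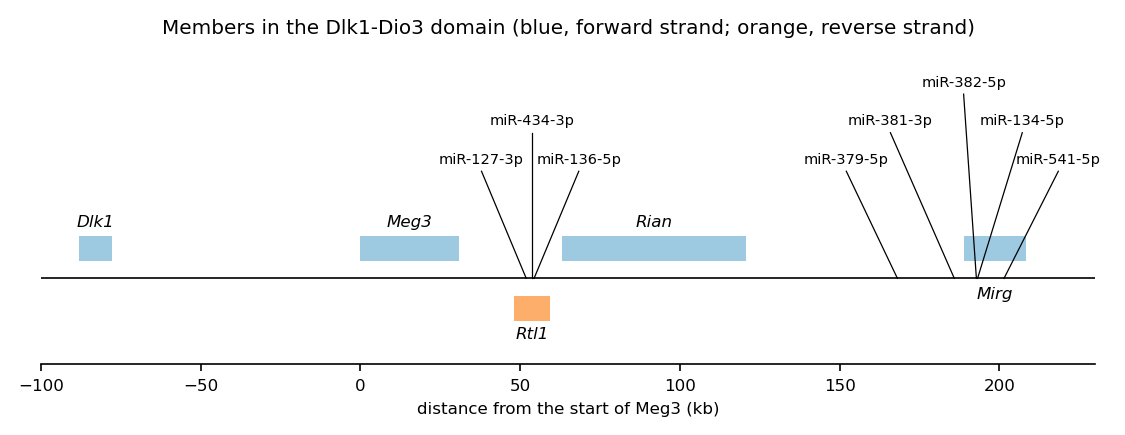
Position of the 8 members and of 5 genes of the domain along chromosome 12, as distance from the start of Meg3 in kb; bars are genes, blue on the forward and orange on the reverse strand, and lines point to the mature miRNAs. The 3 members opposite Rtl1 lie 51.9 to 54.3 kb from the start of Meg3 and the 5 others 168 to 201 kb from it, and Dio3 lies beyond the right edge.

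The libraries held between 165139 and 351758 miRNA reads, which was 0.856% to 3.76% of their annotated reads. A level is given here as reads per 1000000 miRNA reads of the library (RPM). A miRNA that a library does not list was taken as 0, and 3 counts, the limit that a count of 0 allows, equalled 8.53 to 18.2 RPM. Intervals are exact (Clopper-Pearson) 95% binomial intervals, and like that limit they cover counting error only, since PCR copies were not marked and reads need not stand for separate molecules.

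The 8 members took few miRNA reads with each kit, the largest share with TailorMix and the smallest with TruSeq. The 8 members summed to 155 and 79 reads in the NEBNext libraries, to 77 and 62 in those of TruSeq, and to 236 and 259 in those of TailorMix. As a share of miRNA reads this was 0.0689% (95% interval 0.0585% to 0.0807%) and 0.0478% (0.0379% to 0.0596%) with NEBNext. It was 0.0219% (0.0173% to 0.0274%) and 0.0220% (0.0169% to 0.0282%) with TruSeq, and 0.122% (0.107% to 0.139%) and 0.132% (0.116% to 0.149%) with TailorMix. The groups did not overlap, and their means were 0.0584% ± 0.0149, 0.0219% ± 0.0000635 and 0.127% ± 0.00676 (SD, n = 2 each). Counted as reads per 1000000 annotated reads, tRNA fragments and other small RNAs included, the NEBNext libraries had 5.90 and 4.65, the TruSeq libraries 6.63 and 6.58 and the TailorMix libraries 45.9 and 48.9. TailorMix was then still the highest, but TruSeq lay above NEBNext, the reverse of their order among miRNA reads. No interval was computed for these values, so that the small step between TruSeq and NEBNext is a description only.

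Which members made up these reads differed from kit to kit. With NEBNext, miR-434-3p and miR-541-5p took the most, 22.1% ± 9.79 and 23.9% ± 5.55 of the member reads, and 7 members shared the reads (mean ± SD, n = 2). With TruSeq, miR-434-3p and miR-381-3p together held nearly all of them, 60.5% ± 10.2 and 31.4% ± 3.35. With TailorMix, miR-379-5p took 39.4% ± 0.0174 and miR-382-5p 31.8% ± 3.62. The 3 members opposite Rtl1 held 59.7% and 69.4% of the member reads for TruSeq, 34.8% and 21.5% for NEBNext, and 8.05% and 7.72% for TailorMix. Their 95% intervals were 47.9% to 70.8% and 56.3% to 80.4% in the TruSeq libraries and reached at most 12.3% in the TailorMix libraries. In TruSeq, miR-434-3p alone had 41 of the 46 and 42 of the 43 reads of this group. The level of the group was 240 and 103 RPM for NEBNext, 131 and 152 for TruSeq, and 98.2 and 102 for TailorMix. The level of the other members moved more, with 449 and 375, 88.1 and 67.4, and 1122 and 1214 RPM.

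**Figure D2:**
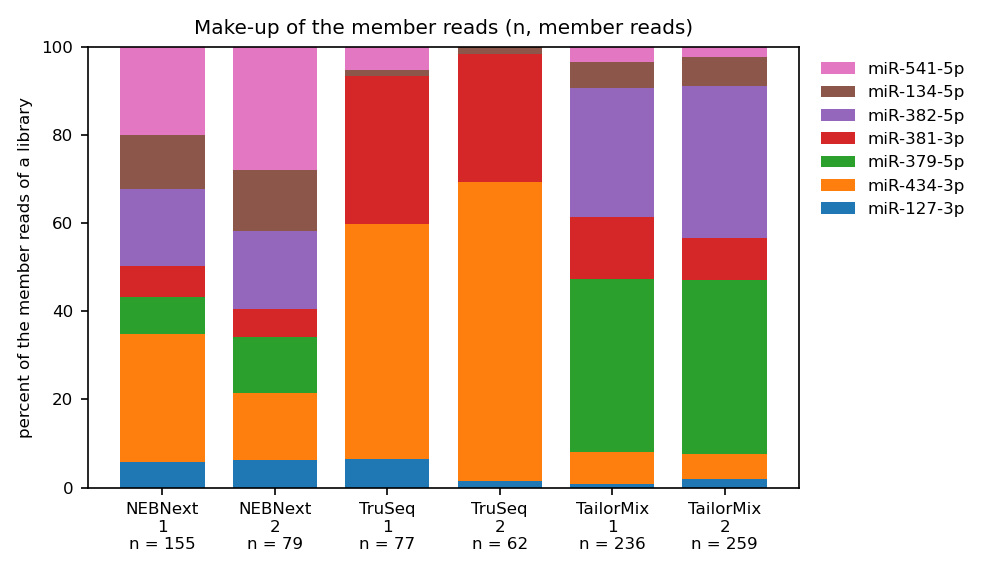
Share of each member in the member reads of a library, in percent, for the 6 libraries; n is the number of member reads, and miR-136-5p had none. The orange segment of miR-434-3p is 53.2% and 67.7% of the TruSeq bars, where the green of miR-379-5p and the purple of miR-382-5p are missing; in the TailorMix bars these are 39.4% each for miR-379-5p and 29.2% and 34.4% for miR-382-5p.

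The order of the members within a kit can be read from their ranges over the 2 libraries. With NEBNext the mean levels ran from miR-434-3p at 136.4 RPM through miR-541-5p (135.5), miR-382-5p (102), miR-134-5p (75.6), miR-379-5p (59.2) and miR-381-3p (39.6) to miR-127-3p (35.2). There the range of miR-434-3p, 72.7 to 200 RPM, overlapped those of miR-541-5p, miR-382-5p and miR-134-5p, and the ranges of miR-381-3p and miR-127-3p overlapped as well. With TailorMix the order was miR-379-5p (499 RPM), miR-382-5p (404), miR-381-3p (149), miR-434-3p (82.0), miR-134-5p (79.4), miR-541-5p (35.9) and miR-127-3p (17.9), and of these neighbours only miR-434-3p and miR-134-5p overlapped. With TruSeq, miR-434-3p (133 RPM) lay above miR-381-3p (68.9), and these 2 stood clear of miR-127-3p (8.88), miR-541-5p (5.69) and miR-134-5p (3.19), whose ranges overlapped with each other. miR-379-5p led all members with TailorMix, came 5th of them with NEBNext and was not listed with TruSeq. Among all miRNAs listed in a library, the leading member had rank 93 and 92 where TailorMix was used, 107 and 101 for TruSeq and 141 and 153 for NEBNext, with 367 to 540 miRNAs listed.

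**Figure D3:**
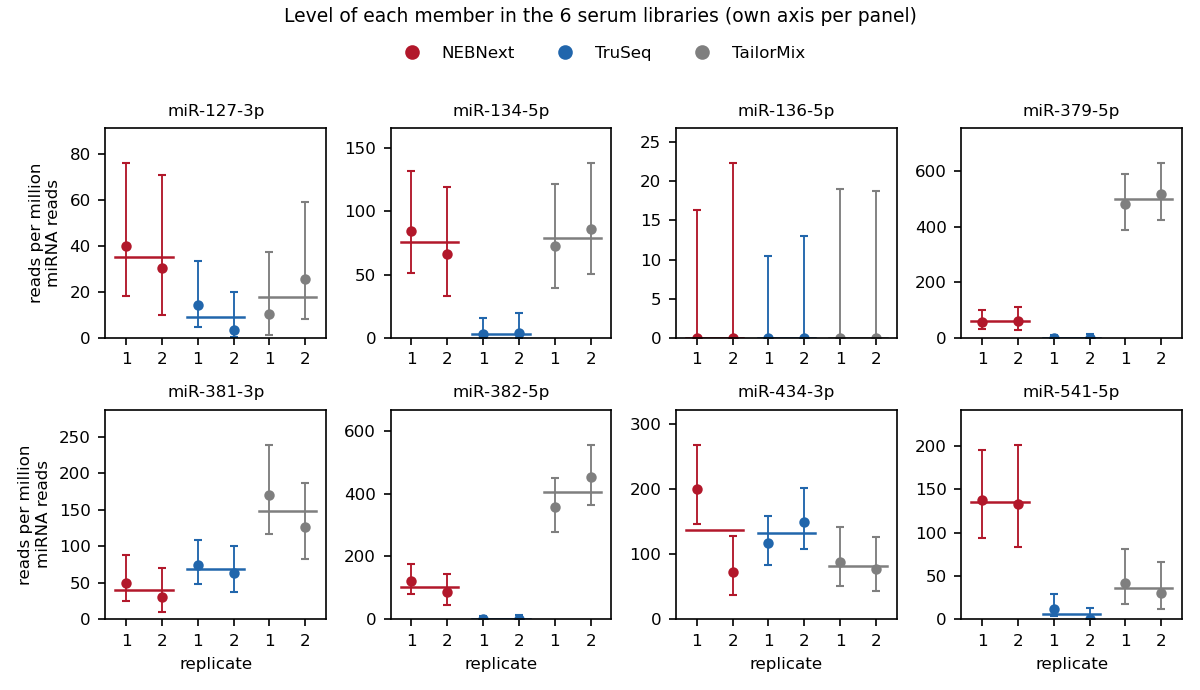
Level of each member in reads per 1000000 miRNA reads (linear axis, its own in each panel) in replicates 1 and 2 of NEBNext (red), TruSeq (blue) and TailorMix (grey). Points are libraries with exact 95% binomial intervals for counting error, and lines are kit means. The TailorMix libraries stand above all others for miR-379-5p, miR-381-3p and miR-382-5p, and the NEBNext libraries for miR-541-5p and miR-127-3p.

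Differences between kits were tested with edgeR's quasi-likelihood test over all 360 miRNAs that had at least 4 counts in at least 2 of the 6 libraries, with Benjamini-Hochberg adjustment over these 360, and a miRNA was called at an adjusted p under 0.05. Of the 8 members 7 were tested, and miR-136-5p, without reads, was not. miR-134-5p, miR-379-5p and miR-382-5p passed this filter through NEBNext and TailorMix libraries alone, so that a difference from TruSeq came with the filter and their p-values against TruSeq describe these libraries without being independent of it. Their values from the fit to all 788 listed miRNAs, with no filter on low counts, are therefore given too. TMM normalization underlies the fold changes and takes its scale from the bulk of miRNAs. That bulk was itself not near no change. The median size of the log2 fold change was 2.21 for TruSeq minus NEBNext, 2.18 for TailorMix minus NEBNext and 2.37 for TailorMix minus TruSeq. On the library total alone the median log2 difference of the 360 miRNAs moved from -0.52 to -1.48 for TruSeq minus NEBNext, from -0.24 to -0.89 for TailorMix minus NEBNext and from 0.50 to 0.91 for TailorMix minus TruSeq. A fold change between kits is therefore relative to a scale that itself depends on the scaling, and ratios of 2 members within a library do not depend on it.

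miR-379-5p, which opens the larger cluster of the domain, had the highest mean level of the members with TailorMix and no reads with TruSeq. Its counts were 13 and 10 with NEBNext (57.8 and 60.6 RPM), 0 and 0 with TruSeq, and 93 and 102 with TailorMix (481 and 518 RPM). No groups overlapped, and the TruSeq libraries were at the limit of their depth, where 3 counts were 8.53 and 10.6 RPM and the exact intervals of a count of 0 reached 10.5 and 13.1 RPM. Its log2 fold change from NEBNext to TailorMix reached 3.71 (standard error 0.29, edgeR adjusted p = 3.18e-13), and by the mean levels it was 8.44-fold higher. In RPM, set against 3 counts in each TruSeq library, its mean level was 52.1-fold higher with TailorMix and 6.18-fold higher with NEBNext. Both folds use the library totals and would be smaller with TMM scaling or with the exact limits of a count of 0. The edgeR test, on TMM scaling, gave TruSeq against TailorMix an adjusted p = 4.61e-15 (2.43e-29 with no filter). TruSeq against NEBNext had an edgeR adjusted p = 6.15e-05 (2.79e-05 with no filter). The first value of each is not independent of the filter, and both fits rest on the same TruSeq counts of 0.

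miR-382-5p, of the same cluster, was listed in the same 4 libraries. It had 27 and 14 counts with NEBNext (120 and 84.8 RPM), none with TruSeq, and 69 and 89 with TailorMix (357 and 452 RPM). The order of the kits was that of miR-379-5p and the groups did not overlap, but the step from NEBNext to TailorMix was smaller. Its log2 fold change there was 2.59 (standard error 0.28, edgeR adjusted p = 8.19e-10), or 3.95-fold by the mean levels. In RPM, set against 3 counts in each TruSeq library, miR-382-5p was 42.2-fold higher with TailorMix and 10.7-fold higher with NEBNext. These folds too would be smaller with TMM scaling or with the exact limits of a count of 0. On TMM scaling, TruSeq against TailorMix had an edgeR adjusted p = 1.21e-13 (8.29e-26 with no filter). TruSeq against NEBNext had an edgeR adjusted p = 1.65e-06 (2.73e-08 with no filter). Again the first value of each is not independent of the filter, and both fits rest on the same counts of 0. Of the reads on miR-379-5p and miR-382-5p together, miR-379-5p had 32.5% and 41.7% with NEBNext and 57.4% and 53.4% with TailorMix.

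Of the 788 listed miRNAs, 306 had no reads in both TruSeq libraries, most of them miRNAs with few reads in any library. miR-379-5p and miR-382-5p belonged to 7 of these 306 that had at least 69 counts in both TailorMix libraries, a level that 101 miRNAs reached in all. The value of 69 is the lowest TailorMix count of these 2 members and was chosen after it was seen, so that this gives their place in the list and no test. Ranked by mean TailorMix count among those 306, they came 5th and 7th.

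miR-134-5p showed the same gap at TruSeq at a lower level, but not the rise at TailorMix. Its counts were 19 and 11 with NEBNext (84.5 and 66.6 RPM), 1 and 1 with TruSeq (2.84 and 3.55 RPM), and 14 and 17 with TailorMix (72.4 and 86.3 RPM). NEBNext and TailorMix overlapped, and both lay above TruSeq. Summed over libraries, its level was 24.4 times that of TruSeq with NEBNext (exact 95% interval of the counts 6.19 to 211) and 25.2 times with TailorMix (6.40 to 217). The log2 fold change was -3.38 (standard error 0.78, edgeR adjusted p = 0.000281) from NEBNext to TruSeq and 4.08 (standard error 0.74, edgeR adjusted p = 1.13e-05) from TruSeq to TailorMix. With no filter on low counts these were -3.44 (edgeR adjusted p = 0.000191) and 3.90 (edgeR adjusted p = 9.22e-06). The filtered p-values are not independent of the filter, and both fits rest on the same few TruSeq reads. From NEBNext to TailorMix the test did not call it, with 0.69 (standard error 0.42, edgeR adjusted p = 0.129), and the ratio of the counts, 1.03, had an interval of 0.604 to 1.77. Its read numbers against miR-382-5p, whose gene lies next to it, differed between kits, since miR-382-5p had 58.7% and 56.0% of the reads of these 2 with NEBNext and 83.1% and 83.96% with TailorMix.

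miR-541-5p, at the far end of the members, was highest with NEBNext. It had 31 and 22 counts there (138 and 133 RPM), 4 and 0 with TruSeq (11.4 and 0 RPM), and 8 and 6 with TailorMix (41.4 and 30.5 RPM). The groups did not overlap, in the order NEBNext, TailorMix, TruSeq. The log2 fold change from NEBNext to TruSeq was -3.28 (standard error 0.63, edgeR adjusted p = 2.66e-05), and it was -2.55 without TruSeq replicate 2 and -7.48 without TruSeq replicate 1, where TruSeq has no read left and the size rests on the prior count of the fit. From NEBNext to TailorMix it was -1.26 (standard error 0.48, edgeR adjusted p = 0.0202). That call was lost without TailorMix replicate 1 (-1.22, adjusted p = 0.103), without TailorMix replicate 2 (-0.94, adjusted p = 0.177) and with DESeq2 (-1.29, adjusted p = 0.241), in a range of adjusted p from 0.000113 to 0.241 over the alternatives. From TruSeq to TailorMix it was 2.02 (standard error 0.82, edgeR adjusted p = 0.0280). That call was lost without TruSeq replicate 2 (1.08, adjusted p = 0.304), without TailorMix replicate 1 (1.97, adjusted p = 0.0924), with DESeq2 (2.09, adjusted p = 0.122) and with no filter on low counts (1.84, adjusted p = 0.0781), in a range from 0.00446 to 0.304, and its size was 6.05 without TruSeq replicate 1.

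miR-381-3p was the 1 member of the larger cluster with more than 4 reads in each TruSeq library. Its counts were 11 and 5 with NEBNext (48.9 and 30.3 RPM), 26 and 18 with TruSeq (73.9 and 63.8 RPM), and 33 and 25 with TailorMix (171 and 126.97 RPM). The 3 kits did not overlap, with TailorMix highest and NEBNext lowest. The log2 fold change was 1.81 (standard error 0.44, edgeR adjusted p = 0.000604) from NEBNext to TruSeq. On the library total alone it was 0.75 and not called (adjusted p = 0.146, with a range of 5.02e-05 to 0.146 over the alternatives). From NEBNext to TailorMix it was 2.49 (standard error 0.42, edgeR adjusted p = 3.00e-06). From TruSeq to TailorMix the difference of 0.68 was not called (standard error 0.34, edgeR adjusted p = 0.0776), although it was called on the library total (1.095, adjusted p = 0.00331) and without NEBNext replicate 1 (0.74, adjusted p = 0.0471), the highest of the alternatives being 0.457. Within a library it changed places with miR-541-5p, which had 73.8% and 81.5% of the reads of these 2 with NEBNext but 13.3% and 0% with TruSeq and 19.5% and 19.4% with TailorMix.

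miR-434-3p, of the group opposite Rtl1, led the members in both TruSeq libraries and in NEBNext replicate 1, while in NEBNext replicate 2 it lay below miR-541-5p and miR-382-5p. Its counts were 45 and 12 with NEBNext (200 and 72.7 RPM), 41 and 42 with TruSeq (117 and 149 RPM), and 17 and 15 with TailorMix (87.9 and 76.2 RPM). The NEBNext libraries stood on both sides of all others, and their exact intervals, 146 to 268 RPM and 37.5 to 126.9 RPM, did not overlap each other. The kit means were 136.4 ± 90.1 RPM, 133 ± 22.9 RPM and 82.0 ± 8.26 RPM (SD, n = 2 each). With TMM the log2 fold change from NEBNext to TruSeq was 0.93 (standard error 0.33, edgeR adjusted p = 0.0131), but on the library total it was -0.14 and not called (adjusted p = 0.718, with a range of 0.000857 to 0.718 over the alternatives). The size of that difference rested on single libraries, being 1.63 without NEBNext replicate 1, 0.31 and not called without NEBNext replicate 2, and 0.69 and not called without TruSeq replicate 2. It was also not called with DESeq2 (1.11, adjusted p = 0.116) or with no filter on low counts (0.87, adjusted p = 0.0604). From TruSeq to TailorMix it was -1.09 (standard error 0.37, edgeR adjusted p = 0.00996), and it was not called on the library total (-0.68, adjusted p = 0.0678) or with DESeq2 (-1.19, adjusted p = 0.0910), the lowest of the alternatives being 0.00225. Between NEBNext and TailorMix the difference of -0.16 was not called (standard error 0.40, edgeR adjusted p = 0.710).

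The reads of miR-379-5p against those of miR-434-3p describe the same counts with no scaling between libraries. The pair sets the leading member with TailorMix against the leading member with TruSeq, so that it is no separate test. Of the reads on these 2 miRNAs, miR-379-5p had 22.4% (95% interval 12.5% to 35.3%) and 45.5% (24.4% to 67.8%) with NEBNext. It had 0 of 41 and 0 of 42 with TruSeq, for which the exact intervals reached 8.60% and 8.41%. With TailorMix it had 84.5% (76.4% to 90.7%) and 87.2% (79.7% to 92.6%). The intervals of the 3 kits did not overlap each other.

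The remaining pair of the group opposite Rtl1 had few reads or none. miR-127-3p, complementary to Rtl1, had 9 and 5 counts with NEBNext (40.0 and 30.3 RPM), 5 and 1 with TruSeq (14.2 and 3.55 RPM), and 2 and 5 with TailorMix (10.3 and 25.4 RPM). The NEBNext libraries lay above all others, while TruSeq and TailorMix overlapped. No difference was called, with a log2 fold change of -0.83 from NEBNext to TruSeq (standard error 0.75, edgeR adjusted p = 0.338), -0.34 from NEBNext to TailorMix (0.73, adjusted p = 0.669) and 0.49 from TruSeq to TailorMix (0.88, adjusted p = 0.629). On the library total the first of these was -1.87 and called (adjusted p = 0.0196, in a range of 0.0196 to 0.747). By the summed counts alone, the TruSeq level was 0.264 times that of NEBNext, with an exact 95% interval of 0.0831 to 0.730. miR-136-5p was listed in none of the 6 libraries, so that its level was below detection at 8.53 to 18.2 RPM.

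By comparison, 2 of the 7 tested members were called higher in TruSeq than in NEBNext and 4 lower, when 26.1% and 42.5% of the 360 miRNAs were called in these directions. In TailorMix against NEBNext, 3 were called higher and 1 lower, beside 39.2% and 38.3% of all. In TailorMix against TruSeq, 4 were called higher and 1 lower, beside 41.7% and 28.9% of all. The 4 called lower in TruSeq than in NEBNext, and the 4 called higher in TailorMix than in TruSeq, include miR-134-5p, miR-379-5p and miR-382-5p. Those members passed the filter through NEBNext and TailorMix libraries alone, so that their calls against TruSeq are not independent of it. With 7 members a count of 1 is a large share, and no test over the list was made. On the library total the members split into 0 and 5, 3 and 2, and 5 and 0, and all 360 miRNAs into 61 and 192, 108 and 172, and 175 and 89. The median size of the log2 fold change over all 360 miRNAs was 2.21, 2.18 and 2.37 in these comparisons, so that differences of several-fold between kits were the rule in these libraries. How many of all miRNAs had kits that did not overlap was not counted, so that non-overlap of a member is a description only.

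**Figure D4:**
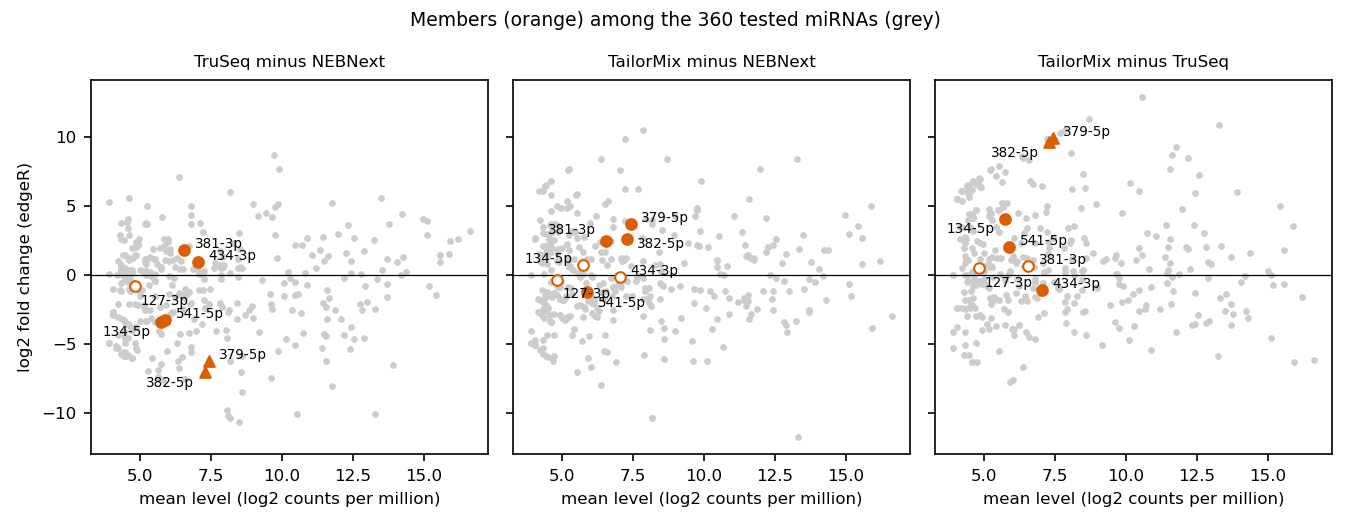
Log2 fold change (edgeR, TMM) against mean level (log2 CPM) for the 360 tested miRNAs in the 3 comparisons; orange symbols are the 7 tested members, filled where called, and triangles mark miR-379-5p and miR-382-5p against TruSeq, where the fitted size depends on the prior count. The triangles are the lowest members in TruSeq minus NEBNext and the highest in TailorMix minus TruSeq, and miR-434-3p lies between -1.09 and 0.93 in the panels.

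By sequence, 4 members end in G (miR-134-5p, miR-136-5p, miR-379-5p and miR-382-5p) and 4 in U (miR-127-3p, miR-381-3p, miR-434-3p and miR-541-5p). Over the 1679 mature mouse miRNAs, 30.6% end in G and 28.6% in U. Of the members that end in G, miR-136-5p had no reads with any kit and the other 3 had 0 or 1 read in each TruSeq library, while those that end in U had between 0 and 42, with 4 and 0 for miR-541-5p. This was noticed after the counts were seen, and it could not be examined over the other miRNAs, whose identifiers were not paired with sequences here. The first base is U in 5 members, A in 2 and G in 1, and the G+C content ran from 36.4% in miR-136-5p to 59.1% in miR-127-3p and miR-134-5p, with a median of 46.5% against 52.2% over all mature miRNAs.

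Over the 6 libraries, the summed level of the members (log2 of RPM + 1) was most alike that of MIMAT0004521 (Pearson r = 0.993) and MIMAT0000669 (r = 0.989) among 171 other miRNAs with a mean of at least 20 counts. The libraries form 3 pairs by kit, so that these values describe a shared order of the kits and have no p. MIMAT0004521 had 289 and 295 RPM for TailorMix, 245 and 212 RPM for NEBNext and 162 and 149 RPM for TruSeq, a narrower span than that of the members. MIMAT0000669 had a far wider span, with 12746 and 12677 RPM for TailorMix, 1210 and 1060 RPM for NEBNext and 25.6 and 28.4 RPM for TruSeq.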

How the data were processed

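Small RNA libraries of serum RNA were made with 3 kits, 2 libraries each, grouped by the sample titles. The authors deposited raw read counts: 1 list of counts per miRBase identifier and 1 list of counts per distinct sequence of other small RNA for each library. Per the labels and the study's methods, adaptors were trimmed with Cutadapt 1.8.1, reads under 15 bp or without adaptor were discarded, FASTX-Toolkit 0.0.14 kept reads of which 80% or more of the bases reached a quality of 20, and Bowtie 1.1.2 mapped reads without mismatches to GRCm38, so that edited forms with a mismatch were not counted. Positions were matched to miRBase release 20 and Ensembl release 84.

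Shares, levels and exact intervals were computed with Python 3.11.15, pandas 2.3.3 and scipy 1.17.1. miRNAs that reached 4 counts in 2 or more libraries were tested on the deposited counts with edgeR 4.0.16 (R 4.3.3; TMM, glmQLFit, glmQLFTest, all 6 libraries, kit as the only term). Standard errors are the log2 fold change divided by the root of F. DESeq2 1.42.0, other scalings, no filter on low counts, the 4 libraries of a contrast, the replicate number as a block and each library left out were alternatives. The scripts were tested on simulated data. All 8 members were named, with the miRNAs most alike to their sum by rule (5 in the rule; 2 are printed, as identifiers, since no table used here pairs identifiers with names). For the same reason the other miRNAs of the domain, the other arms of the members' hairpins and the cell type markers of the plan were not analysed here. The members and lists were chosen with earlier results of these data known. Positions and sequences came from RefSeq (GRCm38.p6) and GENCODE release M21.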

Additional observations from a re-analysis of the deposited data

How the results depend on the processing

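For the 7 tested members in 3 comparisons, 227 of the values under the 12 alternatives kept their direction and their side of the threshold, 14 kept the direction but lost the call, 4 gained one and 7 changed sign. The calls of miR-134-5p against TruSeq, and of miR-379-5p and miR-382-5p in all comparisons, were kept in each of the 12, the fit with no filter included. These 3 members had at most 1 read in a TruSeq library and passed the filter through the other kits. The alternatives refit the same libraries and share these counts, so that their agreement against TruSeq is no separate evidence. On the library total miR-434-3p was -0.14 in TruSeq against NEBNext. With single libraries left out, it ranged from -0.74 to 0.60 in TailorMix against NEBNext, and miR-127-3p, never called there, from -0.99 to 0.42 in that comparison and from -0.36 to 1.73 in TailorMix against TruSeq. The causes were not tested. Over all 360 miRNAs, 247, 279 and 254 were called in TruSeq against NEBNext, TailorMix against NEBNext and TailorMix against TruSeq, and 38.1% and 50.5% of the calls in the first 2 were higher, but 24.1% and 38.6% on the library total. DESeq2 called 3 members in TailorMix against TruSeq, where edgeR called 5, and 204 of the 360 miRNAs, where edgeR called 254. As a share of all annotated reads the members made up 0.000528% in NEBNext, 0.000661% in TruSeq and 0.00474% in TailorMix libraries, and without miR-379-5p the TailorMix share of miRNA reads was 0.0768%.

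Adding a block for the replicate number, the counts were 232, 250 and 235, and 6, 4 and 5 members were called, as without it. The titles number the sera 1 and 2 within each kit and do not say whether equal numbers are the same serum. The numbers were not taken to pair libraries. The difference between replicates 1 and 2 over 102 miRNAs had a Pearson correlation of 0.000932, -0.0660 and 0.121 between pairs of kits. Such values cannot settle whether the sera were the same, since sera that differ little would also give low correlations. Detection in the rest of the domain at 1 or 4 counts was not run, for want of names. With 1 to 45 reads per listed member and library outside TailorMix, counting error limits these values, and groups of 2 allow no check for an outlying library.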

Other observations

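The domain also makes clustered C/D box snoRNAs, small RNAs that guide 2′-O-methylation, from Rian and its surroundings. The planned list of snoRNA names matched 5 genes in GENCODE, of which 3 lie in the domain. These 5 had 1 read in TruSeq replicate 1, on AF357399 of chromosome 7 and so outside the domain, and 1 read in TailorMix replicate 1, on AF357425. As few names matched, the 23 snoRNA genes that GENCODE places between Dlk1 and Dio3 were also taken, by position, after the files were seen. Of these 23, 3 had any read. NEBNext libraries had 2 and 2 such reads, TruSeq libraries none, and TailorMix libraries 1 and 0, of 1555 to 2757 reads listed as snoRNA per library. They fell on Gm26922 (1 and 2 reads with NEBNext), Gm23736 (1 read) and AF357425 (1 read). Each library had fewer than the 3 counts that a count of 0 allows, so that no difference between kits was detectable at this depth.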
